A study of Mus musculus with 12 samples.

Results

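The nuclear genes of respiratory complex I were followed over 12 arrays of 3T3-L1 cells, a mouse line of preadipocytes that can turn into fat cells in culture. Members were the rows with a single gene symbol that starts with Ndufa, Ndufb, Ndufc, Ndufs or Ndufv, Ndufaf included, which gave 45 of the 22206 probe sets. One further row, which carries Ndufa13 together with another symbol, was left out. Each group had 2 arrays, numbered 1 and 2 in the labels. In 5 groups cells received 5 µM of a compound for 14 days: squalene (SQ), or one of the ethylene glycol derivatives of squalene named mono-SQ, di-SQ, tri-SQ or tetra-SQ. Values of the compounds are given in this order, from SQ to tetra-SQ, with the control after them. The control cells received no compound. Sample labels describe the control as not induced, whereas the protocol gives every culture IBMX, dexamethasone and insulin and then insulin alone, with or without compound. In the control arrays the fat cell genes Adipoq and Fabp4 stood at 17.45 and 17.41 and at 18.25 and 18.36 log2 units, against a median of 6.26 and 6.27 for the negative-control probe sets of the same arrays. The labels do not say whether the 2 arrays of a group came from separate cultures. In the fits by group the p-values therefore measure the spread between these arrays, which may be technical.

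Complex I takes electrons from NADH and passes them through a flavin and a chain of iron-sulfur clusters to ubiquinone, and it pumps protons across the inner mitochondrial membrane as it does so. The peripheral arm, which reaches into the matrix, holds the redox groups, and the membrane arm holds the pumps, whose core subunits are encoded by mitochondrial DNA. Accessory subunits surround the core, while assembly factors help to build the complex and are then released. Mitochondria multiply when 3T3-L1 cells become fat cells.

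The 45 members fell into 6 roles. Among the 7 nuclear core subunits were Ndufs1, Ndufs3, Ndufs7, Ndufs8, Ndufv1 and Ndufv2. The 10 accessory subunits of the peripheral arm were Ndufa2, Ndufa5, Ndufa6, Ndufa7, Ndufa9, Ndufa12, Ndufab1, Ndufs4, Ndufs6 and Ndufv3. The 9 accessory subunits of the proximal membrane arm were Ndufa1, Ndufa3, Ndufa8, Ndufa10, Ndufa11, Ndufa13, Ndufc1, Ndufc2 and Ndufs5. The 10 of the distal membrane arm were Ndufb2 to Ndufb11. The 7 assembly factors were Ndufaf1 to Ndufaf7. The remaining 2 were Ndufa4, which carries a complex I name but is now counted with cytochrome c oxidase, and its relative Ndufa4l2. Of the members, 39 lay above the negative-control median in all 12 arrays and Ndufa4l2 in 0 arrays. The other 5 were above it in some arrays: Ndufaf2 in 11, Ndufaf5 in 10, Ndufa7 in 3, Ndufaf3 in 2 and Ndufaf6 in 1. The mitochondrially encoded core subunits were not analysed here.

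The promoters of the members were searched for the letters bound by factors known to drive nuclear genes of respiration. RefSeq (GRCm38.p6) promoters, running from 250 bases before to 50 after the start, were at hand for 39 of the 45 members. Both strands were searched. The NRF1 letters GCATGCGC were in 5 of 39 members (12.8%), against 3.67% of the 18973 promoters of genes on the array. The YY1 letters AAGATGGC were in 7 (17.9%), against 3.11%, each time on the gene's own strand and beginning between bases 23 and 39 after the start. The ERR letters AAGGTCA were in 3 (7.7%), against 4.01%, and the GABP letters CCGGAAGT in 1 (2.6%), against 5.28%. A match is a run of letters and not a measured site, and its bearing on the signals was not tested. One stretch per motif is printed below to show where the letters sit, with the motif in capitals and the motif of Ndufs3 read on the opposite strand. They lie at chr15:82354317-82354424 (minus strand) for Ndufa6, chr7:3617345-3617402 (plus) for Ndufa3, chr6:39592334-39592440 (plus) for Ndufb2 and chr2:90904692-90904771 (minus) for Ndufs3.
Ndufa6: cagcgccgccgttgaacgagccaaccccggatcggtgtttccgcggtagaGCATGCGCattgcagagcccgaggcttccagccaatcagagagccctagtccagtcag
Ndufa3: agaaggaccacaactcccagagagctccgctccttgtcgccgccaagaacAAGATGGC
Ndufb2: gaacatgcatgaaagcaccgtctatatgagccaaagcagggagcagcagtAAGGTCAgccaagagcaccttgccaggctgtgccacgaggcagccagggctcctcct
Ndufs3: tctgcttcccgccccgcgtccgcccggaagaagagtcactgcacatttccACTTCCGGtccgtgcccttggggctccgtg

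No complex I gene passed the test against control under any compound. Each comparison was tested with limma on the log2 signals of all 12 arrays, with p adjusted over all 22206 probe sets, and a call needs an adjusted p under 0.05. For each of the 5 compounds against control, 0 of 45 members were called, and so were 0% of all probe sets. The lowest adjusted p of a member was 0.920 for SQ, 0.837 for mono-SQ, 0.886 for di-SQ, 0.761 for tri-SQ and 0.624 for tetra-SQ. At an unadjusted p under 0.05 there was 1 member for di-SQ and 0 for each of the other compounds, while 5.03% to 8.49% of all probe sets passed it. The 5 comparisons share the control arrays. The authors' deposited table likewise listed 0 members with an FDR p under 0.05 in each comparison, with a lowest FDR p of 0.622, for tetra-SQ and signed fold changes between -2.03 and 2.22.

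The estimates themselves leaned upward for some compounds. The median log2 difference of the 45 members from control was 0.08 for SQ (27 higher), 0.27 for mono-SQ (35 higher), 0.34 for di-SQ (34 higher), -0.02 for tri-SQ (20 higher) and 0.29 for tetra-SQ (34 higher). Over all probe sets 47.5% to 50.8% were higher. With the second arrays of the compounds as a block, the medians of the members were 0.51 for SQ, 0.72 for mono-SQ, 0.73 for di-SQ, 0.46 for tri-SQ and 0.72 for tetra-SQ, and 0 members were called. Within the first arrays alone the SQ median was 0.22, and within the second alone it was -0.01. The block places each compound at the level of the first arrays, by the mean gap between second and first arrays of all 5 compounds. The gap of SQ was smaller than that mean, so its 0.51 is above both of these values. Over the mean of the 5 compounds the member median was 0.20 (32 higher) in the fit by group and 0.57 with that block. The latter is by construction the first arrays minus the controls. In the fit by group single members lay between -0.80 for Ndufs1 and 0.84 for Ndufb5. Ndufb11, an X-linked subunit of the distal membrane arm, had the lowest unadjusted p. Its signals were 10.28, 10.40, 10.57, 10.05 and 10.14 in the second compound arrays and 10.29, 10.58, 10.74, 11.13 and 10.92 in the first, against 9.87 and 9.78 in the controls. All 10 compound arrays were above both controls. The difference was 0.69 ± 0.28 (SE), with an adjusted p of 0.542. Ndufb5, another distal subunit, ranged from 9.60 in tri-SQ array 2 to 11.61 in tetra-SQ array 1, against 9.84 and 9.83 in the controls. Its difference was 0.84 ± 0.45 (SE), with an adjusted p of 0.629, and the compound arrays overlapped the controls.

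The arrays of one compound disagreed more than the controls did. The median SD of a member between the 2 arrays of a group was 0.35 for SQ, 0.69 for mono-SQ, 0.57 for di-SQ, 1.16 for tri-SQ and 0.96 for tetra-SQ, against 0.05 for control. The array numbered 1 and the array numbered 2 are therefore described apart. Against the control mean, the member median was -0.02 in SQ array 2, -0.26 in mono-SQ 2, -0.06 in di-SQ 2, -0.79 in tri-SQ 2 and -0.44 in tetra-SQ 2. In the first arrays it was 0.17 for SQ, 0.72 for mono-SQ, 0.65 for di-SQ, 0.74 for tri-SQ and 0.93 for tetra-SQ. First arrays of the 4 derivatives thus held 42 or 43 of the 45 members above both controls, and the first SQ array held 27. Over all probe sets that share was 37.7% to 43.4% in the first derivative arrays and 40.5% in the first SQ array. Among second arrays the number below both controls was 21 for SQ, 28 for mono-SQ, 22 for di-SQ, 40 for tri-SQ and 33 for tetra-SQ. Over all probe sets it was 44.8%, 42.3%, 44.5%, 42% and 45% in the same order, so the SQ and di-SQ counts of the members were near the background. The median over all probe sets stayed near 0 in every array, as the plot of list medians shows.

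**Figure D1:**
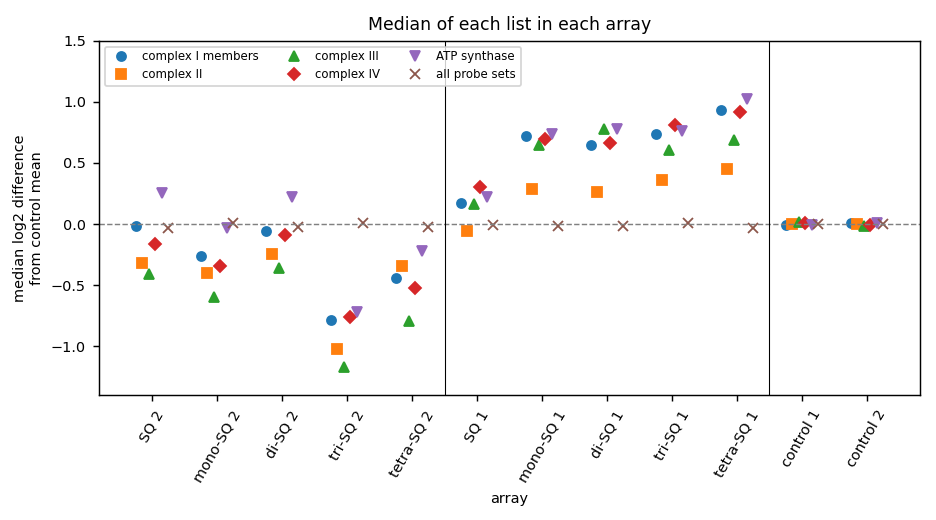
Median log2 difference from the control mean (vertical axis) in each array (horizontal axis: second compound arrays, first compound arrays, controls) for the 45 complex I members, the lists of complexes II, III and IV and ATP synthase, and all probe sets. Complex I medians run from -0.79 to -0.02 in the second compound arrays and from 0.17 to 0.93 in the first, while all probe sets stay near 0.

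Second arrays against first arrays of the 5 compounds were compared in a fit that keeps each compound as a block and gives the control pair a term of its own. Its p-values measure how much the difference varies among the 5 compounds, which are not replicates of one condition. Complex I signals were lower in the second arrays: 29 of 45 members were called lower and 0 higher, where 9.96% of all probe sets were called lower and 11.2% higher. The estimate was negative for 44 of 45 members, with a median of -0.96 log2 units, against -0.02 over all probe sets. It ran from -2.10 for Ndufb9 to 0.09 for Ndufa4l2. In 26 members the second array was the lower one in all 5 compounds, in 16 in 4 compounds and in 3 in 3 compounds. The same count was not taken over all probe sets, so it is not read as particular to complex I. The labels do not say what the numbers 1 and 2 mark, so whether the compounds are independent repeats of this difference is not known.

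Core subunits were called lower in 6 of 7 cases, with a median of -1.34. Ndufs7, at chr10:80249105-80256794 (GRCm38.p6), carries the last iron-sulfur cluster before ubiquinone. It read 9.25, 8.93, 9.52, 7.39 and 8.96 in the second arrays of the compounds, from SQ to tetra-SQ and 9.85, 10.62, 10.91, 11.03 and 11.17 in the first, against 9.86 and 9.89 in the controls. Every second array was below every first array, and tri-SQ array 2 was the lowest of the 12. The difference was -1.91 ± 0.34 (SE), with an adjusted p of 0.00222. Ndufs1, the largest core subunit and a carrier of iron-sulfur clusters, read 10.62, 9.94, 10.42, 9.71 and 9.99 in the second arrays and 11.53, 11.67, 11.89, 11.64 and 11.57 in the first, against 11.69 and 11.7 in the controls. Here the first arrays sat at the level of the controls and the second arrays below it. The difference was -1.52 ± 0.17 (SE), with an adjusted p of 9.91e-05. Ndufv1, the flavoprotein that oxidises NADH, showed the same layout, with 12.87, 12.43, 12.91, 12.10 and 12.37 in the second arrays, 13.66, 13.68, 13.77, 13.78 and 13.57 in the first, and 13.63 and 13.59 in the controls. Its difference was -1.16 ± 0.16 (SE), with an adjusted p of 0.000506.

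In Ndufv2, Ndufs3 and Ndufs8 all first arrays lay above both controls. Ndufv2, the iron-sulfur partner of Ndufv1, read 11.78, 11.75, 11.74, 10.15 and 11.24 in the second arrays and 12.34, 13.01, 13.04, 13.01 and 13.25 in the first, against 11.87 and 11.92 in the controls. Its second arrays were all below the controls (-1.60 ± 0.28 between them, SE, adjusted p 0.00177). Ndufs3, a core subunit that carries no redox group, read 13.40, 13.14, 13.39, 11.91 and 12.88 in the second arrays and 13.74, 14.31, 14.30, 14.48 and 14.57 in the first, against 13.39 and 13.44 in the controls. The second SQ array lay between the controls (-1.34 ± 0.27, SE, adjusted p 0.00456). Ndufs8, which holds iron-sulfur clusters, read 8.78, 8.76, 8.76, 8.50 and 8.0 in the second arrays and 8.82, 9.61, 9.54, 9.45 and 9.68 in the first, against 8.59 and 8.55 in the controls. The second arrays of SQ, mono-SQ and di-SQ were above both controls as well. Its difference was -0.86 ± 0.21 (SE), with an adjusted p of 0.0131, and without the tetra-SQ arrays it was -0.66 with an adjusted p of 0.0544.

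In the accessory subunits of the peripheral arm, 6 of 10 were called lower and the median was -1.02. Ndufab1, at chr7:122086815-122101848, is the mitochondrial acyl carrier protein, which also serves mitochondrial fatty acid synthesis and sits in both arms of the complex. It read 12.06, 11.78, 11.56, 12.15 and 11.77 in the second arrays of the compounds, from SQ to tetra-SQ and 13.87, 13.74, 13.85, 13.79 and 13.62 in the first, against 13.37 and 13.25 in the controls. The second arrays were all below and the first all above the controls. The difference was -1.91 ± 0.15 (SE), with an adjusted p of 8.07e-06, the lowest of any member. Ndufa9, which binds a nucleotide near the ubiquinone pocket, read 11.45, 11.08, 11.48, 10.92 and 11.04 in the second arrays and 12.63, 12.68, 12.90, 13.24 and 12.76 in the first, against 12.28 and 12.42 in the controls. It differed by -1.65 ± 0.18 (SE, adjusted p 7.93e-05).

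Ndufa6, a LYR-motif subunit that binds the acyl carrier protein, read 11, 10.68, 10.92, 9.89 and 10.51 in the second arrays and 11.18, 12.41, 12.15, 12.73 and 12.81 in the first, against 10.79 and 10.83 in the controls. The first derivative arrays stood at least 1 unit above the controls, and the first SQ array much closer to them. The difference was -1.66 ± 0.31 (SE), with an adjusted p of 0.00315. Ndufa5 averaged 11.59 over the 5 second and 13.04 over the 5 first arrays, and Ndufv3, a small subunit of the NADH-oxidising module, 8.32 and 9.37. Their differences were -1.45 ± 0.21 and -1.05 ± 0.17 (SE), with adjusted p values of 0.000505 and 0.00112. Ndufa2 was also called (-0.98, adjusted p 0.0118). Ndufs4, Ndufs6, Ndufa7 and Ndufa12 were not, with estimates between -0.62 and -0.28. Ndufa12, which takes the place of the assembly factor Ndufaf2 late in assembly, read 13.50, 13.59, 13.58, 12.72 and 13.17 in the second arrays and 13.00, 13.70, 13.70, 13.56 and 13.98 in the first, against 12.94 and 12.98 in the controls. All arrays but tri-SQ 2 were above the controls, and the second and first arrays overlapped (-0.28 ± 0.20, SE, adjusted p 0.418).

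**Figure D2:**
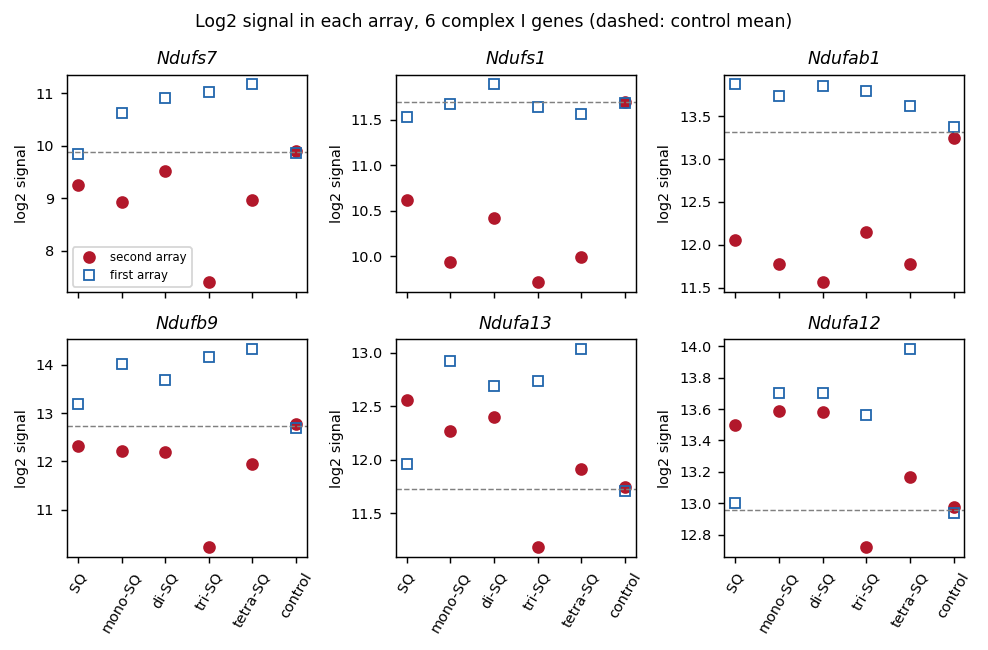
Log2 signal (vertical axis, a scale of its own for each gene) in the second array (filled circles) and first array (open squares) of each group, with the control mean as a dashed line, for 6 members. Second and first arrays are apart for Ndufs7, Ndufs1, Ndufab1 and Ndufb9 and overlap for Ndufa13 and Ndufa12.

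Of the 9 accessory subunits of the proximal membrane arm, 8 were called lower, with a median of -1.04. Ndufc2 read 12.28, 11.85, 12.36, 11.31 and 11.65 in the second arrays of the compounds, from SQ to tetra-SQ and 12.76, 13.38, 13.19, 13.90 and 13.64 in the first, against 12.51 and 12.36 in the controls. It had the largest difference of this arm, -1.48 ± 0.27 (SE, adjusted p 0.00254). Ndufa10, a relative of nucleoside kinases, read 10.88, 10.37, 10.22, 9.43 and 10.14 in the second arrays and 11.20, 11.75, 11.34, 11.39 and 11.87 in the first, against 10.99 and 10.89 in the controls. All second arrays were below both controls and all first arrays above them (-1.30 ± 0.22, SE, adjusted p 0.00156). Ndufa3 read 11.12, 11.22, 11.23, 10.57 and 11.08 in the second arrays and 11.61, 12.16, 12.04, 12.18 and 12.44 in the first, against 10.93 and 10.89 in the controls. Its second arrays were above the controls in every compound but tri-SQ, and its difference between arrays was -1.04 ± 0.18 (SE, adjusted p 0.00178). The member of this arm that was not called was Ndufa13, known also as GRIM-19. It read 12.56, 12.27, 12.40, 11.18 and 11.91 in the second arrays and 11.96, 12.92, 12.69, 12.73 and 13.03 in the first, against 11.71 and 11.74 in the controls. The second SQ array was the higher of its pair. The difference of -0.60 ± 0.26 (SE) had an adjusted p of 0.150, and without the SQ arrays it was -0.90 with an adjusted p of 0.0125.

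In the distal membrane arm 7 of 10 subunits were called lower, with a median of -0.99. Ndufb9, at chr15:58933801-58939516, is the LYR-motif subunit that holds the acyl carrier protein in this arm. It read 12.31, 12.21, 12.20, 10.22 and 11.95 in the second arrays of the compounds, from SQ to tetra-SQ and 13.19, 14.02, 13.68, 14.16 and 14.32 in the first, against 12.70 and 12.78 in the controls. Second arrays lay below both controls and first arrays above, and the tri-SQ pair was the widest, at -3.94. The difference was -2.10 ± 0.35 (SE), with an adjusted p of 0.00144. Ndufb2 read 10.09, 9.55, 10.17, 8.84 and 9.39 in the second arrays and 11.04, 11.54, 11.47, 10.96 and 11.50 in the first, against 10.45 and 10.47 in the controls (-1.69 ± 0.20, SE, adjusted p 0.000144). Ndufb10 averaged 9.72 in the second arrays and 10.87 in the first, and Ndufb6 12.17 and 13.12. Their differences were -1.15 ± 0.17 and -0.96 ± 0.15 (SE), with adjusted p values of 0.000605 and 0.00108. Ndufb3, Ndufb4 and Ndufb8 were the other calls, and Ndufb5, Ndufb7 and Ndufb11 were not called, with adjusted p values of 0.0679, 0.0638 and 0.125.

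Of the 7 assembly factors 1 was called lower, where 9.96% of all probe sets were called lower. Their median was -0.38, a smaller shift than in any group of subunits. Ndufaf6, Ndufaf3, Ndufaf5 and Ndufaf2 were above the negative-control median in only 1, 2, 10 and 11 of the 12 arrays. Signals near that level limit what can be seen. The difference between roles was not tested. The call was Ndufaf4, which acts early in the building of the peripheral arm. It read 8.85, 8.90, 8.87, 8.69 and 8.71 in the second arrays of the compounds, from SQ to tetra-SQ and 9.39, 10.08, 9.68, 9.92 and 9.70 in the first, against 9.43 and 9.44 in the controls. Its second arrays were close to one another and below both controls (-0.95 ± 0.15, SE, adjusted p 0.00114). Ndufaf3, its partner in assembly, read 6.24, 5.33, 5.34, 4.56 and 5.60 in the second arrays and 5.29, 6.16, 6.10, 6.77 and 6.69 in the first, against 6.25 and 6.18 in the controls, most of them below the negative-control median. Its SQ pair ran the other way from the rest. The estimate was -0.79 ± 0.34 (SE) with an adjusted p of 0.145, and without the SQ arrays it was -1.22 with an adjusted p of 0.00442. Ndufaf1, which helps to build the membrane arm, read 7.71, 7.50, 7.98, 7.92 and 8.72 in the second arrays and 8.55, 8.33, 7.81, 8.26 and 7.95 in the first, against 7.79 and 7.92 in the controls. The arrays overlapped throughout (-0.21 ± 0.23, SE, adjusted p 0.607). Ndufaf5, an enzyme that modifies Ndufs7, read 7.61, 6.90, 6.85, 5.98 and 6.85 in the second arrays and 6.22, 6.66, 7.32, 7.38 and 7.75 in the first, against 6.0 and 6.62 in the controls. Its SQ and mono-SQ pairs were higher in the second array and the other pairs lower (adjusted p 0.713).

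Ndufa4 and Ndufa4l2 complete the members. Ndufa4 read 13.52, 13.38, 13.59, 11.93 and 13.12 in the second arrays and 14.16, 15.03, 14.77, 15.05 and 15.26 in the first, against 13.52 and 13.50 in the controls. All first arrays were above the controls, and the second arrays were at or below them apart from di-SQ (-1.75 ± 0.29, SE, adjusted p 0.00154). Ndufa4l2 stayed between 3.04 and 3.71 in all 12 arrays, below the negative-control median, and its estimate was 0.09 ± 0.16 (SE, adjusted p 0.777).

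**Figure D3:**
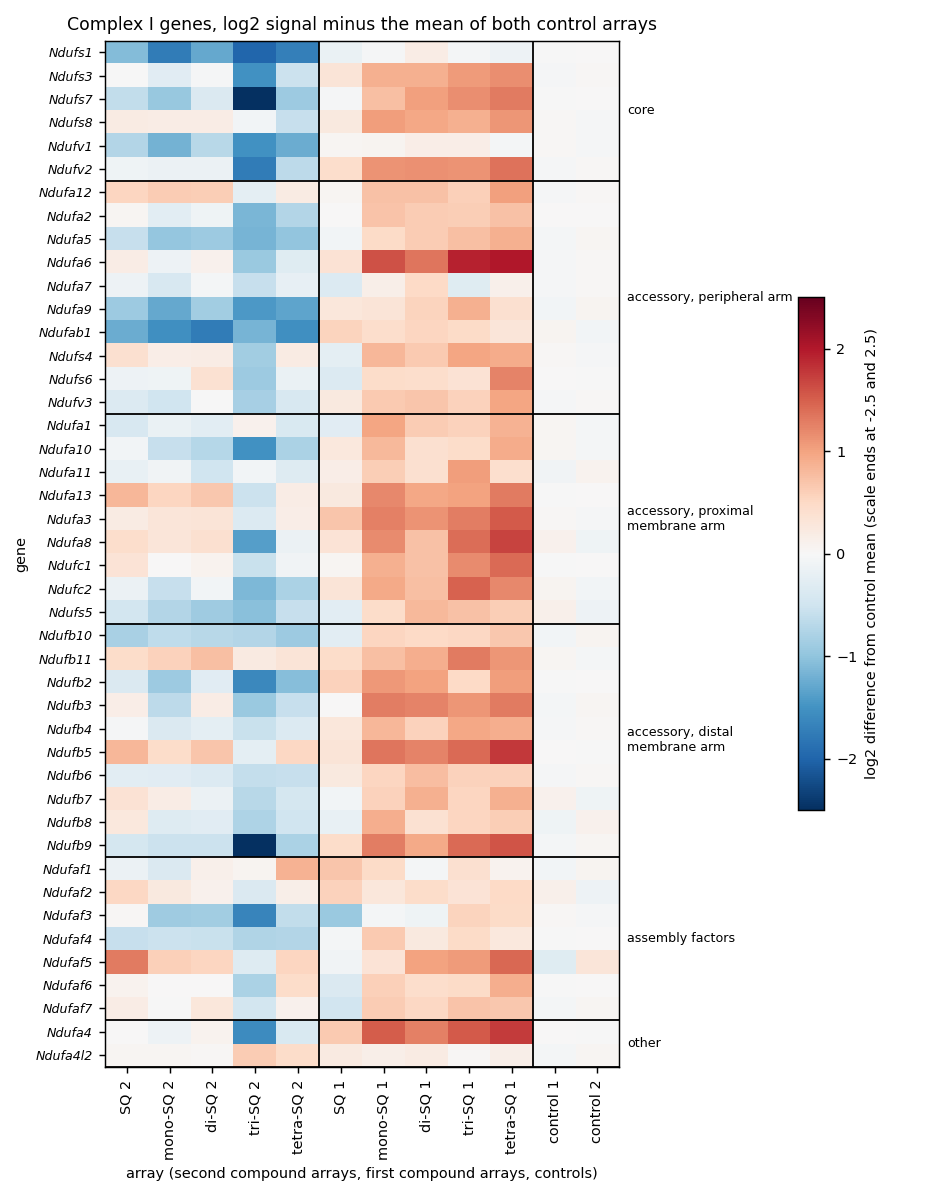
Log2 signal minus the mean of both control arrays (colour) for 44 of the 45 members (rows, grouped by role) in the second compound arrays, the first compound arrays and the controls (columns). Second arrays are mostly blue, most of all tri-SQ 2, where 40 of the 45 members were below both controls, and first arrays of the derivatives mostly red, with 42 or 43 of the 45 above both controls.

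The size of the gap between the 2 arrays differed among the groups. The median of second minus first over the 45 members was -0.18 for SQ, -0.98 for mono-SQ, -0.81 for di-SQ, -1.64 for tri-SQ and -1.36 for tetra-SQ, against 0.02 for control. Members lower in the second array numbered 28 for SQ, 44 for mono-SQ, 44 for di-SQ, 44 for tri-SQ and 43 for tetra-SQ, against 17 for control. Over all probe sets the share lower in the second array was 52.6% for SQ, 48.2% to 50% for the derivatives and 48.4% for control. The gap was over 1 unit in 3, 22, 16, 38 and 33 members of those compound pairs, in the same order, and in 0 members of the control pair. It was over 1 unit in 13.8%, 10.2%, 10.9%, 16.5% and 10.9% of all probe sets in those compound pairs and in 0.225% in control, so the SQ share of the members, 6.67%, was below its background. Control gaps lay between -0.27 and 0.62, and tri-SQ gaps between -3.94 and 0.60. Set against the shift of the control pair in one fit, the shift of the compounds was called for 1 member, where 2.18% of all probe sets were called, 1.43% lower and 0.748% higher. That member was Ndufab1, with a shift of -1.91 in the compounds and -0.12 in the control. The difference between the shifts was -1.79 ± 0.36 (SE), with an adjusted p of 0.0324. Without the mono-SQ, di-SQ or tetra-SQ arrays its adjusted p was 0.0835, 0.0722 or 0.0759, and then 0 members were called. Without the SQ arrays 5 were called. The shares of all probe sets called in those runs are not given here, so these counts are not read as particular to complex I. The median difference between the shifts was -0.96 over the 45 members, of which 18 had an unadjusted p under 0.05, as did 11.3% of all probe sets. The control shift rests on 1 pair of arrays.

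**Figure D4:**
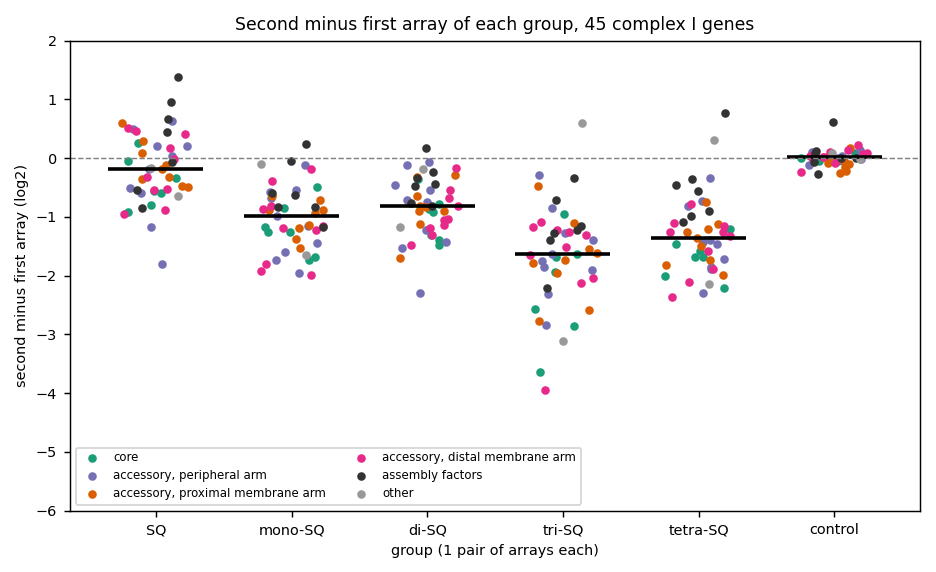
Second minus first array in log2 units (vertical axis) for each of the 45 members (points, coloured by role) in each group (horizontal axis), with the median as a bar. The medians run from -1.64 (tri-SQ) to -0.18 (SQ) in the compounds, against 0.02 in control.

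The first and the second compound arrays were also set against the controls apart. With the 5 second arrays as one group against both controls, a setting chosen after the values were seen, 8 members were called, all lower. Of all probe sets 9.9% were called lower and 10% higher. The 8 members were Ndufs1 (-1.56 ± 0.24, SE, adjusted p 0.00101), Ndufv1 (-1.07 ± 0.23, adjusted p 0.00735), Ndufab1 (-1.45 ± 0.19, adjusted p 0.000368), Ndufa9, Ndufa5, Ndufb10, Ndufs5 and Ndufaf4. At an unadjusted p under 0.05, in either direction, there were 14 members (31.1%), near the 32.3% of all probe sets. With the 5 first arrays as the group, 0 members and 0% of all probe sets were called, 27 members (60%) had an unadjusted p under 0.05, against 12.7% of all probe sets, and the median of the members was 0.57. The member with the lowest unadjusted p was then Ndufa3, at 1.18 ± 0.22 (SE) with an adjusted p of 0.198. The arrays in these groups hold 5 different treatments, so they are not replicates of one condition. All 5 first arrays were above both controls in 24 members (9.66% of all probe sets) and below both in 0 (10.7%). All 5 second arrays were below both controls in 15 members (19.5%) and above both in 1, Ndufb11 (18.6%). The lowest first array was above the highest second array in 23 members (8.86%).

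Among themselves the compounds were compared at the same dose and time, each derivative against SQ and each against the derivative named before it, 7 pairs in all. In each of the 7, 0 members and 0% of all probe sets were called. Against SQ the median difference of the members was 0.23 for mono-SQ (35 higher), 0.26 for di-SQ (38 higher), -0.02 for tri-SQ (19 higher) and 0.25 for tetra-SQ (37 higher). It was 0.01 for di-SQ against mono-SQ, -0.36 for tri-SQ against di-SQ (38 lower) and 0.30 for tetra-SQ against tri-SQ (37 higher). Shares of all probe sets by direction are not given here for these pairs, so the direction counts are not read as particular to complex I. At an unadjusted p under 0.05 there was 1 member in the 7 pairs, Ndufa7, at -0.66 ± 0.28 (SE) in tri-SQ against di-SQ with a 95% interval from -1.29 to -0.03 and an adjusted p of 0.999. In tri-SQ against di-SQ, 4.5% of all probe sets passed that unadjusted threshold. For Ndufb9 the 95% interval of the difference of tri-SQ from di-SQ ran from -3.52 to 2.02. That fit, by group alone, counts the gap between the first and second arrays as spread. With the second arrays of the compounds as a block the interval ran from -1.93 to 0.43, and 0 members were called in any of the 7 pairs. For Ndufb9 neither interval excludes a sizeable difference. Its SD between the tri-SQ arrays, 2.79, was the largest of any member, so intervals of other members may be narrower. The lack of calls does not show that the compounds act alike.

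The order of the compounds within an array number was also read off. In the first arrays SQ was below all 4 derivatives in 39 of 45 members and above all 4 in 4, where 25.6% and 25.5% of all probe sets did so. In the second arrays tri-SQ was below the other 4 compounds in 38 members and above them in 4 (26.4% and 26.9%). First arrays had tetra-SQ on top in 23 members (19.9%), and second arrays had SQ on top in 22 (18.9%). These are single arrays with no replicate of their own, and the patterns were chosen after the values were seen.

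The other respiratory complexes were set beside complex I. In second against first compound arrays, complex II had 5 of 8 genes called lower (median -0.79), complex III 9 of 9 (median -1.08), complex IV 10 of 10 (median -1.19) and ATP synthase 10 of 17 probe sets (median -0.78), against 29 of 45 for complex I (median -0.96). Over all probe sets 9.96% were called lower and 11.2% higher. The complex II list mixes subunits with assembly factors. Its subunits were all called lower, from -1.22 to -0.64, and of its assembly factors only Sdhaf3 was called. Cyc1, the cytochrome of complex III, had the largest difference in these lists, complex I included, at -2.47 ± 0.15 (SE, adjusted p 1.86e-06). Next among complexes II to IV and ATP synthase was Uqcrc2, a core protein of complex III, at -1.55 ± 0.22 (SE, adjusted p 0.00047). Assembly factors of complex I with other names had 4 of 10 called lower (median -0.34), Acad9 among them (-0.95 ± 0.19, SE, adjusted p 0.00441), as also Timmdc1 and Foxred1. Genes of iron-sulfur cluster assembly had 8 of 13 called lower (median -0.69), with Isca2 at -1.32 ± 0.17 (SE, adjusted p 0.000281). Regulators of mitochondrial biogenesis had 1 of 10 called lower and 1 higher (median -0.03), each near the share over all probe sets. The calls were Ppargc1b, a coactivator, at -1.72 ± 0.14 (SE, adjusted p 1.4e-05), and Gabpa, the DNA-binding part of GABP, at 0.44 ± 0.14 (SE, adjusted p 0.0442).

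Fat cell markers moved with the same split of the arrays. All 8 adipocyte markers were called lower in the second compound arrays, with a median of -3.41, and their summed log2 signal was 94.52 to 101.31 in the second and 123.2 to 127.14 in the first compound arrays, against 122.71 and 123.1 in the controls. Cfd, Slc2a4 and Plin1 had the largest differences (-5.02, -4.98 and -4.68). Over all probe sets 9.96% were called lower and 11.2% higher in this comparison. Of 5 preadipocyte markers 2 were called higher, Dlk1 (1.82 ± 0.18, SE, adjusted p 4.54e-05) and Pdgfrb (1.24 ± 0.18, SE, adjusted p 0.000651). The other 3 were not called, with estimates of 0.63 for Thy1, -0.31 for Cd34 and -0.21 for Ly6a. The summed signal of the 5 was 56.91 to 59.02 in the second and 52.91 to 56.59 in the first compound arrays, against 55.1 and 55.22 in the controls. Macrophage markers (0 of 6), endothelial markers (0 of 4), muscle markers (1 of 5, Des) and brown fat markers (1 of 5, Cox7a1) gave 2 calls in all, both lower. Together that was near the 9.96% of all probe sets called lower. The endothelial markers Pecam1, Cdh5 and Tek averaged 3.69, 3.43 and 3.99 in the second and 3.97, 3.57 and 4.07 in the first compound arrays, below the negative-control medians. Those medians were 6.49 to 6.66 in the second and 6.10 to 6.28 in the first compound arrays, against 6.26 and 6.27 in the controls. The part of these markers and of the background level in the complex I differences was not tested. In arrays of whole cultures, fewer cells of a type and less RNA per cell cannot be told apart.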

How the data were processed

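Biotin-labelled RNA was hybridised to Clariom S mouse arrays, 1 array per sample. The log2 signals were made by the authors by SST-RMA (Transcriptome Analysis Console, version 4.0.1), as the submitters' design description states, and were deposited to 2 decimals for 22206 probe sets. The array annotation is mm10, per the file headers. The p-values, FDR values and signed fold changes of each compound against control are the authors' deposited values, and the test behind them is not given in the sources used here. A second deposited table of the same arrays, log2 by its values, correlated at 0.9996 or more with the first and supplied 5222 negative-control probe sets.

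From the log2 signals, limma 3.58.1 in R 4.3.3 fitted all 12 arrays by group (6 residual degrees of freedom), or by group plus second-array terms for the compounds and the control (4 residual degrees of freedom). Two-sided p-values were adjusted by Benjamini-Hochberg over all probe sets, and the threshold was 0.05. The number of arrays, 2 a group, limits the precision. The fits were tested on simulated data. Symbols of all 45 members matched RefSeq's table, which gave coordinates and promoters. Same-numbered arrays deviated together between compounds (correlations of 0.48 to 0.719) and not with the control (-0.001 to 0.002), so the numbers were not taken as pairs over all groups.

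Named are the core subunits, the 2 lowest and the highest second-minus-first difference of each role, members past a test (at most 10 a comparison) and the 2 largest differences from control of each role, plus up to 3 genes of each other list. Members and lists were chosen with earlier results of these data known. The values of 1 member are not reported here, though it is counted among the 45.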

Additional observations from a re-analysis of the deposited data

Results flagged for a closer look

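One result was marked because compounds and control differed under the same contrast, by a test of the difference itself. The second array of Ndufab1 was lower than the first in all 5 compounds, by 1.91 log2 units on average, and lower by 0.12 in the control pair. The difference between the shifts was -1.79 ± 0.36 (SE), with a limma adjusted p of 0.0324 over all probe sets. Ndufab1 was 1 of 45 members, a share near the 2.18% of all probe sets that were called. Without the mono-SQ, di-SQ or tetra-SQ arrays it was not called. The control shift comes from 1 pair of arrays.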

How the results depend on the processing

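No member was called for a compound against control, or between compounds, under any alternative run, with 1 exception chosen after seeing the data. With the second arrays as one group against both controls, 8 members were called lower for all compounds, as were 9.9% of all probe sets. In that run Ndufa6 (-0.21) and Ndufa4 (-0.40) turned below the control. With the first arrays as one group, Ndufv1 (0.082) and Ndufab1 (0.464) turned above it. With the second arrays of the compounds as a block the values were the same, 0.082 and 0.464. That block makes the estimate over all compounds the mean of the first arrays minus the control mean. The match was therefore fixed in advance and is no second test. The median difference of SQ from control, 0.08, was 0.51 with that block and 0.22 within the first arrays alone. The 0.51 rests on the mean gap of all compounds, which was wider than that of SQ. With the replicate number as a plain replicate block, 0 members were called in each comparison with control. The median over all compounds was again 0.20, which was fixed in advance, as every group has 1 array of each number. The second-against-first count of 29 was 23 to 38 when 1 compound at a time was left out and 27 to 32 under the other alternatives. Ndufa4l2 ranged from -0.038 (without tri-SQ) to 0.16 (without di-SQ). For the shift of the compounds beyond that of the control, the count of 1 was 2 after quantile normalization, 3 with a filter on dim probe sets (43 of 45 members kept), 3 with an intensity trend, and 0 to 5 when 1 compound was left out. The shares of all probe sets called in these alternative runs are not given here, so a moved count is not read as particular to complex I. The causes were not tested. Signals near the negative-control level, as for Ndufa4l2, Ndufa7, Ndufaf3 and Ndufaf6, limit what can be seen there.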
